A study of Mus musculus with 4 samples.

Results

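The 33 genes described here flank Stap2, the gene knocked out in the mice of the study, on mouse chromosome 17. They were listed by their position near Stap2, with earlier results of these samples known, and their probes were found on the array through the accession that each probe targets. Of the 33, 32 have a probe on the array (Tmigd2 was not matched and is not analysed here), out of 20832 genes named on the array. Those 32 lie between 4 protein-coding genes before Stap2 (Ebi3) and 38 after it (Clpp), in the gene order of the RefSeq assembly GRCm38.p6. The starts of Ebi3 and Clpp are 1037.64 kb apart there. That stretch holds 43 protein-coding genes with Stap2, so the members are most but not all of it.

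Colons came from wild-type (WT) and from STAP-2-/- mice, all labelled C57BL/6J and all aged 14 weeks. All mice of both genotypes had been given 1.75% dextran sulfate sodium (DSS), which damages the lining of the colon and brings on an acute colitis, and no untreated colon is part of the comparison. The labels give 7 days of DSS in one place and 3 days in another. Each array holds RNA of entire colons pooled from 3 mice, with 2 WT and 2 STAP-2-/- arrays, numbered 1 and 2 in the labels. The spread between mice is averaged within a pool, and the p-values measure only the spread between these 4 samples. The labels do not say how the STAP-2-/- allele was made, which part of the gene it removes, how many generations of backcrossing it went through, or whether the DNA around the locus differs in strain between the genotypes.

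STAP-2 is an adaptor protein with an SH2 domain that binds signalling proteins such as STAT3 and MyD88. The genes around it have no common function. Among them are perilipins, which coat lipid droplets, chromatin and replication factors (Chaf1a, Uhrf1, Kdm4b), mitochondrial proteases (Lonp1, Clpp), and genes of inflammation (Ebi3, Lrg1, Ticam1). What they share is a position near the targeted allele on the same chromosome. The comparison asks whether any neighbour of the deleted gene, in either direction, is higher or lower in STAP-2-/- than in WT colons.

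The starts of transcription nearest the targeted gene show how tightly the locus is packed, and the 250 bases before a start are printed here for 4 genes on which the results below turn. Stap2 is transcribed from the minus strand and Mpnd, the next gene, from the plus strand. RefSeq lists 2 starts for Stap2, 1065 and 3595 bases from the start of Mpnd, so the genes diverge from a shared stretch. Fsd1, on the other side of Stap2, runs from the plus strand and so converges on it. The sequences are RefSeq's, build GRCm38.p6, each read 5′ to 3′ on its gene's own strand. Capitals mark GGGCGG (the GC box) and CCAAT (the CCAAT box), found on either strand; the hits do not overlap each other in these windows. The windows are those of the outermost Stap2 start (chr17:56008137-56008386, minus strand), of Mpnd (chr17:56008951-56009200, plus strand), of Shd, 37.654 kb from Stap2 by their starts (chr17:55970232-55970481, plus strand), and of Plin5, 109.412 kb away on the Mpnd side (chr17:56117549-56117798, minus strand).
Stap2: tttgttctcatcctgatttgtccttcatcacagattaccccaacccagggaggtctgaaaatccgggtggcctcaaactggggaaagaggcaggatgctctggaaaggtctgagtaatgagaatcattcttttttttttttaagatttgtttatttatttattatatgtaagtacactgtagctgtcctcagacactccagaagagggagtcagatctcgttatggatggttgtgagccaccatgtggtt
Mpnd: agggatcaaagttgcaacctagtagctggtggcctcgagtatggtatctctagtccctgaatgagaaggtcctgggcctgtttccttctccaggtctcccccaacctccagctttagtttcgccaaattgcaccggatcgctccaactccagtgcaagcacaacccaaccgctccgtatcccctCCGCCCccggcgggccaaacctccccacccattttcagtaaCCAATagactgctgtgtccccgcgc
Shd: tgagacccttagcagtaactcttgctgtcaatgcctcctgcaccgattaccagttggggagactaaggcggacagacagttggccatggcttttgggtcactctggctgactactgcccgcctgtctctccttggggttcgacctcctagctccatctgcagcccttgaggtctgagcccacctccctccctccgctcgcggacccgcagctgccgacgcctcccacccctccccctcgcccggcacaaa
Plin5: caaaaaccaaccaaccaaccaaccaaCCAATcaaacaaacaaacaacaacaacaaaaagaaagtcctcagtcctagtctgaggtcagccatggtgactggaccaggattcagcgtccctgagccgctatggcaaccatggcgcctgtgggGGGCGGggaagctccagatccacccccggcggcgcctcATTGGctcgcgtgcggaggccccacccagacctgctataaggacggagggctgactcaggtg

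A window was found for 29 members and Stap2. Kdm4b, Ranbp3 and Acsbg2 were not matched. Each motif was searched on both strands, and overlaps between motifs were allowed. The 30 windows are those of each gene's outermost start, while the wider set includes several starts of some genes, so the sets are not alike. The windows of Ubxn6 and Hdgfl2 overlap, and boxes in the shared part count for both. The CCAAT box occurred in 17 of these 30 windows (56.7%) and in 33.8% of all 32851 upstream windows of the same length. The GC box was present in 12 of 30 (40.0%), against 32.7% of all windows. TTCNNNGAA, the letters of a STAT site, was present in the windows of Vmac and Clpp, against 7.02% of all windows. TATAAA was found in those of Mydgf and Sh3gl1, against 12.4% of all. The E2F letters TTTCCCGC were in that of Tnfaip8l1, against 0.895% of all, and a direct repeat 1 element in none of the 30, against 0.0335% of all. The window of the outermost Stap2 start and that of Shd held none of these letters. A match is a description of sequence and not a binding site.

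Levels below are log2 of the processed signal relative to the 75th percentile of the same array, so 0 is that percentile itself. A difference is STAP-2-/- minus WT on that scale. The 75th percentile was 2134 and 2215 for WT and 2280 and 2348 for STAP-2-/- colons, and between 68.4% and 70.5% of spots were well above background. Precision is limited by having 2 arrays of each genotype. Arrays with the same number were closer to each other than arrays of the same genotype: log2 differences had an SD of 0.334 between the arrays numbered 1 and 0.361 between those numbered 2, against 0.405 within WT and 0.603 within STAP-2-/-. The labels do not say that a number marks a shared litter or day. All 9 colon epithelial markers with a probe, among them Cdx1, Vil1 and Lgals4, were well above background on every array.

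Stap2 itself had a log2 level of 2.92 and 2.98 in WT and -6.63 and -7.72 in STAP-2-/- colons, where neither array read it well above background. The unscaled signals were 16148 and 17522 in WT and 23.0 and 11.1 in STAP-2-/- colons. The least fold by which WT exceeded them was 721.9. For that bound a STAP-2-/- array enters with its own signal or, where larger, with the dimmest signal that counted as well above background on it. In limma, with the dim signals taken as read, the difference was -10.13 (SE 0.41; adjusted p 0.314). Normexp, another way to correct spots for background, gave an adjusted p of 0.00462. Whether its probe lies inside the deleted part was not analysed here.

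Mpnd and Sh3gl1, the first genes beyond the start of Stap2, overlapped between the genotypes. Mpnd, which encodes a protein with an MPN domain and diverges from Stap2, had log2 levels of 2.92 and 2.88 in WT and 2.94 and 2.68 in STAP-2-/- colons. The genotypes overlapped, and the difference was -0.09 (SE 0.16), with a 95% interval of -0.53 to 0.35. A second Mpnd probe read 1.81 and 1.80 in WT and 1.91 and 1.84 in STAP-2-/- colons, a difference of 0.07, so the probes differ in sign and both differences are smaller than their standard errors. Sh3gl1, coding for endophilin A2, an endocytosis protein, is the next gene along. Its levels were -0.05 and -0.02 in WT and 0.07 and -0.06 in STAP-2-/- colons, a difference of 0.04 (SE 0.13) with an interval of -0.34 to 0.41. For Mpnd and Sh3gl1 the interval leaves out a change of 1.5-fold in either direction.

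Fsd1, which encodes a microtubule-associated protein and is the gene adjacent to Stap2 on the other side, could not be compared at this signal. Its signals were 32.3 and 31.1 in WT and 6.04 and 4.92 in STAP-2-/- colons. Only WT 2 was well above background, so it did not enter the test. Both WT arrays read higher than both STAP-2-/- arrays, and no fold is given. Without the filter on dim probes the limma fit gave an unadjusted p of 0.000228 and an adjusted p of 1.0 for Fsd1. That fit takes as read the signals of WT 1 and of both STAP-2-/- arrays, none of them well above background.

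**Figure D1:**
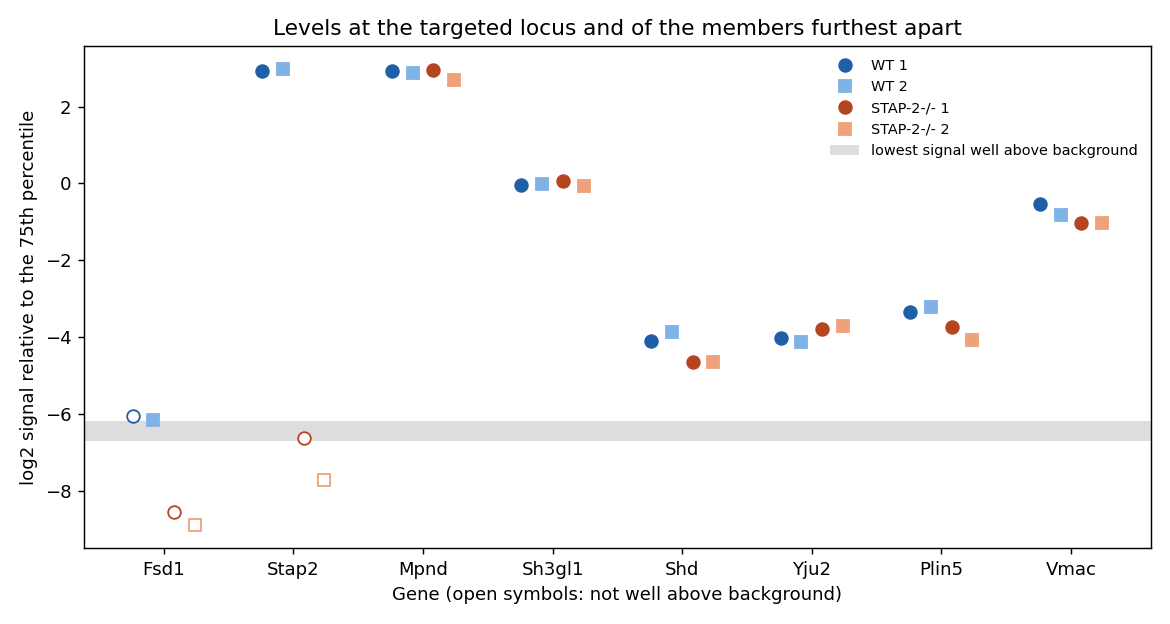
Log2 signal relative to the array's 75th percentile (vertical axis) for 8 genes at and near the targeted locus, 1 symbol per array; open symbols were not well above background, and the grey band spans the lowest signals that were. Stap2 lies at 2.92 and 2.98 in WT and inside or under the band in STAP-2-/- colons, Mpnd and Sh3gl1 overlap between genotypes, and Shd and Plin5 are lower on both STAP-2-/- arrays.

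The 29 members that entered the test were well above background on all 4 arrays. None passed an adjusted p of 0.05 in limma, and over the 15561 genes tested the share called was 0.00%. Stap2 itself, with a difference of -10.13, did not pass in this limma fit (adjusted p 0.314). Not passing therefore does not show that a member is unchanged. The lowest adjusted p among the members was 1.0. At an unadjusted p under 0.05, 2 members were lower in STAP-2-/- colons (Shd and Plin5), where 1.29% of all genes tested were, and 0 were higher, where 0.797% of all were. The same 2 members were at least 1.5-fold lower, against 2.26% of all genes, and 0 were at least 1.5-fold higher, against 1.56%.

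Both STAP-2-/- arrays lay above both WT arrays for 3 members (Yju2, Kdm4b and Safb, 10.3%), against 11.5% of all genes tested. Both lay below for 5 (Shd, Plin5, Vmac, Sema6b and Lonp1, 17.2%), against 13.4% of all. The remaining 21 members overlapped. Among 744 tested genes of chromosome 17 outside the segment, 15.7% were higher and 9.95% lower without overlap. The median difference was 0.02 over the members and -0.01 over all genes, with 16 members higher and 13 lower. The median size of a difference, whatever its sign, was 0.12 over the members and 0.12 over all genes tested. The differences were under 1.2-fold in 23 of 29 members (79.3%), against 81.0% of all genes. The 95% interval left out a change of 2-fold in both directions for 22 members and one of 1.5-fold for 13.

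**Figure D2:**
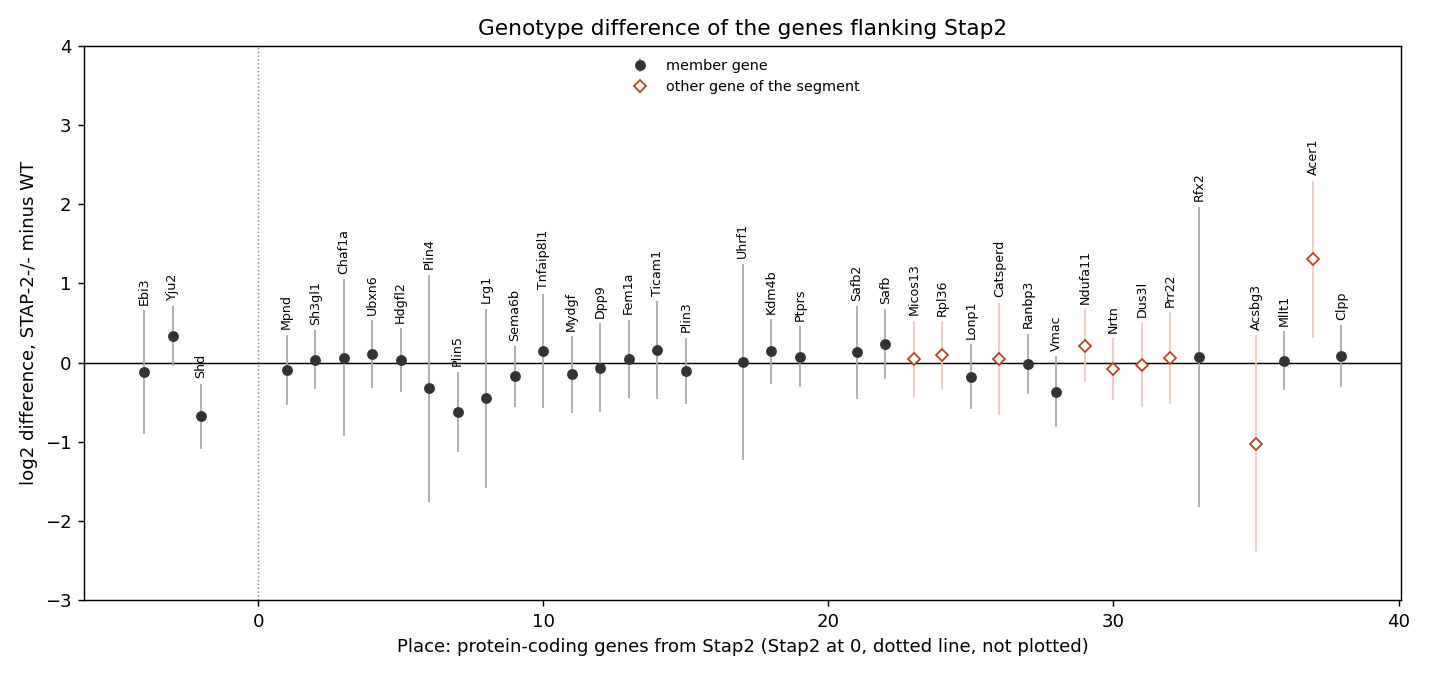
Genotype difference (log2, STAP-2-/- minus WT) with its 95% interval from limma, against place in protein-coding genes from Stap2, for the tested members (filled) and the tested other protein-coding genes of the segment (open). Shd and Plin5 are the filled points whose interval lies below 0; 23 of the 29 members differ by under 1.2-fold.

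The size of the differences was also set against place along the chromosome. Over the 29 members, the number of genes from Stap2 and the size of the difference had a Pearson r of -0.28 and a Spearman rho of -0.19; the points share the same 4 arrays. The 9 tested members within 6 genes of Stap2 had a median size of 0.11, and the 20 further away of 0.14. Fsd1, adjacent to Stap2, is not among the 9 because it did not enter the test. Plin5, with a difference of -0.62, lies 7 genes away and so counts as further away.

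Shd encodes an adaptor protein with an SH2 domain, found mainly in nervous tissue. Its log2 level was -4.09 and -3.87 in WT and -4.66 and -4.66 in STAP-2-/- colons, from signals of 125 and 151 against 90.3 and 93.0. Both STAP-2-/- arrays were lower, by a gap of 0.57 to the nearer WT array. The difference was -0.68 (SE 0.15, 95% interval -1.09 to -0.26), 1.60-fold, with an unadjusted limma p of 0.011 and an adjusted p of 1.0. Leaving out either WT array took the unadjusted p above 0.05, and without WT 2 the difference was -0.57, under 1.5-fold. Normexp background correction gave -0.52.

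Markers of enteric neurons and glia are given beside Shd. In STAP-2-/- colons 8 of 8 had a lower mean, 6 of them without overlap (13.4% of all genes tested were lower without overlap). The median log2 level of these markers was -1.18 and -1.12 in WT and -1.48 and -1.50 in STAP-2-/- colons. None was at background. Chat, the enzyme that makes acetylcholine, differed by -0.52 (SE 0.13), S100b, a glial calcium-binding protein, by -0.47 (SE 0.13), and Elavl4, a neuronal RNA-binding protein, by -0.21 (SE 0.13). No marker of the list passed the adjusted p. The part of these cells in the Shd difference was not tested, and in RNA of whole colon fewer cells of a type and less RNA per cell cannot be told apart. Sema6b, a transmembrane semaphorin of axon guidance, read -4.16 and -4.01 in WT and -4.25 and -4.27 in STAP-2-/- colons. The groups were 0.08 apart at the nearest arrays, and the difference was -0.17 (SE 0.14); under quantile scaling they overlapped. With 1 array left out it lay between -0.25 and -0.10, the latter without WT 2. Ptprs, a receptor tyrosine phosphatase that acts in axon growth, read 2.40 and 2.36 in WT and 2.38 and 2.53 in STAP-2-/- colons. The groups overlapped, except with normexp, and the difference was 0.08 (SE 0.14).

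Yju2, a splicing factor and the gene before Shd, was the member with the largest difference in the other direction. Its levels were -4.01 and -4.14 in WT and -3.78 and -3.70 in STAP-2-/- colons, from signals of 132 and 126 against 166 and 181. Both STAP-2-/- arrays were higher, by a gap of 0.24. The difference was 0.34 (SE 0.13, interval -0.04 to 0.71), 1.26-fold, with an unadjusted limma p of 0.068. With normexp background correction it was 0.17.

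Of the perilipins in the segment, Plin5 separated the genotypes and Plin3 and Plin4 overlapped. Perilipins coat lipid droplets and control access of lipases to the stored fat. Plin5 belongs to oxidative tissues, Plin4 to adipocytes and muscle, and Plin3 is expressed widely. Plin5 had log2 levels of -3.35 and -3.20 in WT and -3.72 and -4.06 in STAP-2-/- colons, from signals of 210 and 240 against 172 and 141. The STAP-2-/- arrays lay below, by a gap of 0.38. The difference was -0.62 (SE 0.18, interval -1.13 to -0.11), 1.54-fold, with an unadjusted limma p of 0.028 and an adjusted p of 1.0. Without WT 1, without WT 2 or without STAP-2-/- 2 the unadjusted p was above 0.05, and the difference ranged from -0.79 to -0.45 (without STAP-2-/- 2) with 1 array left out; without WT 2 it was -0.55, under 1.5-fold. With normexp it was also -0.55.

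Plin4 read 2.52 and 1.25 in WT and 1.83 and 1.30 in STAP-2-/- colons. It was high on both arrays numbered 1, and the difference of -0.32 (SE 0.51) turned to 0.32 without WT 1. Plin3 read 2.89 and 3.08 in WT and 2.95 and 2.81 in STAP-2-/- colons, a difference of -0.11 (SE 0.15).

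Other lipid droplet genes outside the segment were followed in a list of 10, all tested. Of these, 7 had a lower and 3 a higher mean in STAP-2-/- colons, and the median difference was -0.19 (-0.01 over all genes). Without overlap 2 were lower, against 13.4% of all genes tested. Cidea, a droplet fusion protein, differed by -0.40 (SE 0.14), and Dgat2, the last enzyme of triglyceride synthesis, by -0.31 (SE 0.20). Pnpla2, the triglyceride lipase that Plin5 holds at the droplet, differed by 0.01 (SE 0.15). Adipocyte markers, of which Plin1 and Cidec are also on the droplet list, had a lower mean in 7 of 8, 3 without overlap (13.4% of all genes). Their median log2 level was 2.51 and 1.62 in WT and 1.81 and 1.18 in STAP-2-/- colons, so the groups overlapped and, as for Plin4, the array numbered 1 was the higher of each genotype. Retn differed by -0.99 (SE 0.33), Cfd by -0.68 (SE 0.34) and Fabp4 by -0.62 (SE 0.25), none past the adjusted p. No adipocyte marker was at background. Skeletal muscle markers, from a tissue that expresses Plin5, had a median of -2.88 and -3.40 in WT and -2.98 and -3.22 in STAP-2-/- colons, with Myh4 and Mylpf not well above background on any array. The part of adipose or muscle tissue in the Plin5 difference was not tested.

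The genes of inflammation all overlapped between the genotypes. Lrg1, a secreted glycoprotein of the acute phase, is a known target of STAT3. It read -0.24 and 0.46 in WT and -0.74 and 0.06 in STAP-2-/- colons. In each genotype the array numbered 2 was higher, and the difference of -0.45 (SE 0.40) had an interval of -1.58 to 0.68. Without WT 2 it was -0.09 and without STAP-2-/- 1 it was -0.05; without the others it was -0.80 or -0.85. Among 8 other genes known to respond to STAT3, not all of them of the acute phase, Fgb was not well above background on any array. The 7 tested all had a lower mean in STAP-2-/- colons, with a median difference of -0.80. Without overlap 3 were lower, against 13.4% of all genes tested. The list was drawn up with earlier results of these samples known, so its direction is not independent support. Socs3, the feedback inhibitor of STAT3 signalling, differed by -1.34 (SE 0.24), Bcl3, an IκB family protein, by -0.35 (SE 0.16), and Lbp, which binds bacterial lipopolysaccharide, by -0.80 (SE 0.40). Neutrophil markers had a median of -4.08 and -1.11 in WT and -3.71 and -1.30 in STAP-2-/- colons, but the genes behind it were not alike. S100a8, S100a9 and Mpo were higher on the arrays numbered 2 in each genotype, as Lrg1 was, Mpo narrowly so in STAP-2-/- colons (-6.25 and -6.22). Csf3r and Elane were higher on the arrays numbered 1 in each genotype. Of the 7 neutrophil markers with a probe, 5 were tested, 4 of them with a lower mean in STAP-2-/- colons. Ngp was not above background on any array. The part of neutrophils in the Lrg1 values was not tested.

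Ebi3 is the subunit that pairs with the products of Il27 and Il12a to form IL-27 and IL-35. Its levels were -2.12 and -1.61 in WT and -2.22 and -1.75 in STAP-2-/- colons, again higher on the arrays numbered 2, with a difference of -0.12 (SE 0.28). Of its 5 partners and receptors, Il12a was not above background on any array. The other 4 overlapped, 3 with a higher and 1 with a lower mean, among them Il27 at 0.05 (SE 0.31) and Il6st, the shared receptor chain gp130, at -0.15 (SE 0.16).

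Ticam1, or TRIF, carries signals from Tlr3 and Tlr4. It read -0.18 and -0.50 in WT and 0.01 and -0.38 in STAP-2-/- colons, higher on the arrays numbered 1, with a difference of 0.16 (SE 0.22). Of 10 genes of its pathway, 9 were tested. Of these, 5 had a higher and 4 a lower mean, with a median of 0.10. Only 1 of the 9 was higher without overlap, where 11.5% of all genes tested were. This was Ripk1, a kinase that TRIF recruits, with a difference of 0.20 (SE 0.15). Ticam2 was not above background on any array. Mydgf, a secreted growth factor of myeloid cells, read 2.28 and 2.43 in WT and 2.06 and 2.36 in STAP-2-/- colons, a difference of -0.15 (SE 0.17). Tnfaip8l1, of the TNFAIP8 family, read 1.08 and 1.54 in WT and 1.25 and 1.66 in STAP-2-/- colons, a difference of 0.14 (SE 0.26). Both were higher on the arrays numbered 2.

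Dpp9, a dipeptidyl peptidase that restrains the NLRP1 inflammasome, has probes that differ in direction. The brighter read -0.70 and -0.66 in WT and -0.96 and -0.53 in STAP-2-/- colons (difference -0.06, SE 0.20). The other read -2.19 and -2.56 in WT and -2.01 and -2.35 in STAP-2-/- colons (difference 0.20). The genotypes overlapped on both, and the mean of the probes gave 0.07.

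**Figure D3:**
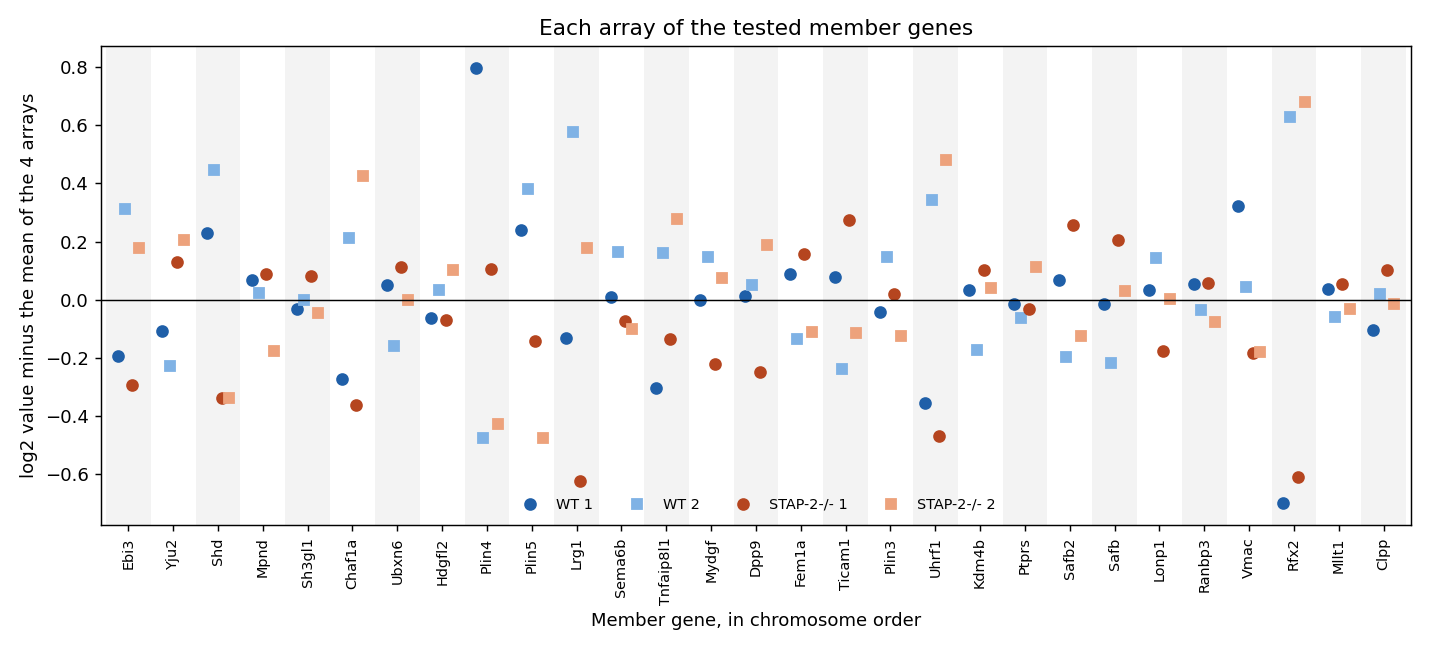
Log2 value of each of the 29 tested members on each array, minus the member's mean over the 4 arrays, in chromosome order. Blue marks WT and red STAP-2-/-; circles are arrays numbered 1 and squares arrays numbered 2. For Chaf1a, Uhrf1, Rfx2 and Tnfaip8l1 the squares lie together above the circles, and for Shd and Plin5 the colours separate.

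The replication and DNA methylation genes were ordered by array number and overlapped between the genotypes. Chaf1a, the large subunit of the chromatin assembly factor that loads histones behind the replication fork, read -2.63 and -2.14 in WT and -2.71 and -1.93 in STAP-2-/- colons, a difference of 0.06 (SE 0.35). Uhrf1, which brings Dnmt1 to newly replicated DNA, read -0.54 and 0.16 in WT and -0.66 and 0.29 in STAP-2-/- colons, a difference of 0.01 (SE 0.44). For both, the arrays numbered 2 were the higher ones in each genotype. Normexp and the mean of the probes turned the sign of the Uhrf1 difference, and a second Uhrf1 probe was not above background on any array. A list of 12 further replication genes had a median log2 level of 0.43 and 0.87 in WT and 0.28 and 0.97 in STAP-2-/- colons, the same order of arrays. All 12 overlapped between genotypes, 8 with a higher and 4 with a lower mean in STAP-2-/- colons. Dnmt1 differed by 0.07 (SE 0.42) and Mki67, a marker of cycling cells, by 0.15 (SE 0.48).

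Kdm4b, a histone H3 lysine demethylase, read 0.64 and 0.44 in WT and 0.71 and 0.65 in STAP-2-/- colons. The nearest arrays of the genotypes were 0.01 apart, and the difference was 0.14 (SE 0.15); with normexp the groups overlapped. It ranged from 0.039 without WT 2 to 0.24 without WT 1. Hdgfl2, a chromatin-binding protein of the HDGF family, read 0.48 and 0.58 in WT and 0.47 and 0.65 in STAP-2-/- colons, a difference of 0.03 (SE 0.14). Mllt1, a reader of acylated histones in the super elongation complex, read 0.22 and 0.13 in WT and 0.24 and 0.16 in STAP-2-/- colons, a difference of 0.02 (SE 0.13). For both genes the order of the arrays followed their number.

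Safb and Safb2 encode paired nuclear proteins that bind RNA and matrix-attached DNA. Their starts lie 397 bases apart and point away from each other, so that the 250-base windows before them share 104 bases. These are in capitals in the window before the Safb start (chr17:56584732-56584981, plus strand, GRCm38.p6, RefSeq). It is shown as a window that both genes share, and was picked after their values were seen. Ubxn6 and Hdgfl2 are another such pair, with outermost starts 298 bases apart and overlapping windows; they differed by 0.11 and 0.03.
Safb: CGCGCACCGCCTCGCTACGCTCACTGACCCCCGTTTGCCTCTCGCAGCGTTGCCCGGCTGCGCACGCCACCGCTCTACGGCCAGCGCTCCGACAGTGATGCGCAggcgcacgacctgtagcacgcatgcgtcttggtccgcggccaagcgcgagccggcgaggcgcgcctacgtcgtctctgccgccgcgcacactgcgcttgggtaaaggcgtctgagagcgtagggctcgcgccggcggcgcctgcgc

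Safb read 0.72 and 0.52 in WT and 0.94 and 0.76 in STAP-2-/- colons. The genotypes separated with STAP-2-/- higher, by a gap of 0.04, and the difference was 0.23 (SE 0.16), 1.17-fold, with an unadjusted limma p of 0.215. It ranged from 0.13 without WT 2 to 0.33 without WT 1. Safb2 read 2.49 and 2.23 in WT and 2.68 and 2.30 in STAP-2-/- colons, which overlapped, with a difference of 0.13 (SE 0.21). A second Safb2 probe read -0.89 and -1.29 in WT and -0.58 and -0.87 in STAP-2-/- colons. There STAP-2-/- was higher without overlap, with a difference of 0.36 (SE 0.22) between the means. The nearest arrays read -0.89 (WT 1) and -0.87 (STAP-2-/- 2). The difference of the brighter Safb2 probe turned to -0.06 without STAP-2-/- 1.

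The mitochondrial proteases had differences of opposite sign. Lonp1, the matrix protease that removes oxidised proteins, read 2.86 and 2.97 in WT and 2.65 and 2.83 in STAP-2-/- colons. The STAP-2-/- values lay below with a gap of 0.03, and the difference was -0.18 (SE 0.15). Under quantile and median scaling the groups overlapped, and with 1 array left out the difference lay between -0.27 (without STAP-2-/- 2) and -0.087 (without STAP-2-/- 1). Clpp, the proteolytic core of the other matrix protease, read 0.44 and 0.56 in WT and 0.64 and 0.53 in STAP-2-/- colons, which overlapped, with a difference of 0.09 (SE 0.14). Its partner Clpx, outside the segment, differed by -0.06 (SE 0.13). In a list of 10 mitochondrial quality control genes, 7 had a higher and 3 a lower mean, with 1 separation each way and a median of 0.03. Over all genes tested, 11.5% were higher and 13.4% lower without overlap.

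Vmac, a coiled-coil protein associated with vimentin-type filaments, read -0.53 and -0.81 in WT and -1.04 and -1.04 in STAP-2-/- colons. Both STAP-2-/- arrays were lower, by a gap of 0.22. The difference was -0.37 (SE 0.16, interval -0.81 to 0.08), 1.29-fold, with an unadjusted limma p of 0.086. It was lower under every scaling and with any array left out, between -0.51 and -0.23 (without WT 1).

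The remaining tested members overlapped between the genotypes. Ubxn6, a cofactor of the p97 ATPase, read 2.58 and 2.37 in WT and 2.64 and 2.53 in STAP-2-/- colons, a difference of 0.11 (SE 0.15). Under quantile and median scaling its STAP-2-/- arrays lay above both WT arrays. Fem1a, a substrate receptor of cullin ligases, read 2.37 and 2.14 in WT and 2.43 and 2.17 in STAP-2-/- colons, a difference of 0.05 (SE 0.18). Ranbp3, a nuclear export cofactor, read 2.43 and 2.34 in WT and 2.44 and 2.31 in STAP-2-/- colons, a difference of -0.02 (SE 0.14) that had the opposite sign under quantile scaling. All 3 were higher on the arrays numbered 1. Rfx2, a transcription factor of ciliated and germ cells, read -5.96 and -4.63 in WT and -5.87 and -4.58 in STAP-2-/- colons. It was higher on both arrays numbered 2, and its difference of 0.07 (SE 0.68) was the least precise of the members tested. It turned to -0.14 with normexp.

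Arrdc5, an arrestin-domain protein, was not well above background on any array, with signals of 9.44 and 5.50 in WT and 6.41 and 5.31 in STAP-2-/- colons. Acsbg2, an acyl-CoA synthetase of the testis, was well above background on WT 2 (signal 113) and STAP-2-/- 1 (59.0) and not on WT 1 (6.24) or STAP-2-/- 2 (4.64). It was thus split within each genotype, and no fold is given for either gene.

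The segment holds 12 other genes with a probe, of which Znrf4 and Fut4-ps1 did not enter the test and 10 did. Both genes outside the members that were at least 1.5-fold apart without overlap lie at its far end. Without overlap, 2 of the 10 lay above WT and 1 below, against 11.5% and 13.4% of all genes tested. A change of 1.5-fold or more occurred upward in 1 of the 10 and downward in 1, against 1.56% and 2.26% of all. With only 10 genes these counts cannot show whether the segment is unusual. Acer1, an alkaline ceramidase 37 genes from Stap2, read 2.59 and 1.97 in WT and 3.92 and 3.24 in STAP-2-/- colons. The genotypes did not overlap, the difference was 1.30 (SE 0.35, interval 0.31 to 2.30), 2.47-fold, and the unadjusted limma p was 0.022 with an adjusted p of 1.0. It was larger in size than that of any member tested, a comparison that was not tested, and ranged from 0.96 to 1.65 with 1 array left out. Without WT 2 or without STAP-2-/- 1 its unadjusted p was above 0.05. Acsbg3, an acyl-CoA synthetase 35 genes away, read -4.06 and -2.77 in WT and -4.58 and -4.31 in STAP-2-/- colons. The difference was -1.02 (SE 0.49), 2.03-fold, with an unadjusted limma p of 0.106, and it was -0.38 without WT 2. Mllt1, between these genes, and Clpp, after Acer1, differed by 0.02 and 0.09. Of the other 8 tested genes, Ndufa11, a subunit of respiratory complex I, was 1.16-fold higher without overlap. Micos13, Rpl36, Catsperd, Nrtn, Dus3l, Prr22 and Gm9258 overlapped between the genotypes.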

How the data were processed

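Per the labels' protocols, total RNA of entire colons was labelled with Cy3 and put on 1-colour Agilent arrays. In the scanner files deposited by the authors, each spot has a processed signal intensity, corrected for background, as well as median spot and local background intensities and flags. They were made with Agilent Feature Extraction 10.7.1.1, per the submitters' processing notes, and name build mm9, per the file headers. The authors' deposited value table is a ratio, the processed signal over 1 constant per array, linear and not centred by gene. Of the brighter probes checked (19099 to 19344 per array), at least 99.9% lay within 1% of that constant. Dimmer probes were not checked. The value table served as an alternative.

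Values are log2 of the processed signal minus the array's 75th percentile over non-control spots; flagged outlier spots (129 to 190 per array) were left out and spots of a probe averaged. No spot was saturated. The 4 arrays share 1 slide and 1 scan. Of 39429 probes, 27427 were named through their accession by RefSeq (GRCm38.p6), used for names, gene order and upstream windows; array coordinates, in another build, were not used. The brightest probe stood for each gene. The 15561 genes tested were well above background on each array of 1 genotype or both. limma 3.58.1 (lmFit, eBayes; R 4.3.3) gave all p-values, adjusted by Benjamini-Hochberg over all genes tested with a threshold of 0.05, and 95% intervals, with no covariate. The fit was tested on simulated data. Python 3.11.15 read and drew the data. The members and gene lists were chosen with earlier results of these data known. Per-array values are given for the nearest 3 members on each side of Stap2, for members without overlap, at least 1.5-fold apart, with an unadjusted p under 0.05, not above background, or with probes of opposite sign, and were added for the other tested members after their values were seen. Alternatives were 4 of scaling or source (quantile, median, another 75th percentile, the value table), normexp on the median signal (offset 50), filters on dim probes, flagged spots, mean of probes, an intensity trend, the replicate block and leaving out each array.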

Additional observations from a re-analysis of the deposited data

How the results depend on the processing

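No member passed the adjusted p under any of the alternatives run. Over all genes, limma made 0 calls in each except normexp background correction, where it made 1 (Stap2, adjusted p 0.00462). With normexp 0 of 29 members were at least 1.5-fold apart, and without a filter on dim probes 4 of 32 were (Shd, Plin5, Fsd1 and Acsbg2). The share of all genes at that fold is not given for these alternatives, so these counts are not results about the members. Differences were followed in 31 genes over 11 alternatives, 5 of which left every one of these differences as it was. Of the 159 values that an alternative moved, 154 kept their direction. The others were Ranbp3 at 0.0027 (quantile scaling), Rfx2 at -0.14 and Uhrf1 at -0.016 (normexp), and Uhrf1 at -0.068 and Dpp9 at 0.069 (mean of probes). The cause was not tested.

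With 1 array left out the lone array is assumed to vary like the others. Members without overlap numbered 12 (without WT 2, where 47.8% of all genes tested did not overlap) to 24 (without STAP-2-/- 2, 76.3% of all), and members at least 1.5-fold apart 2 to 4. No share of all genes at least 1.5-fold apart is given for these settings, so that count is not a result about the members. The direction changed in 26 of 124 values, in 16 genes. Their differences ranged from -0.37 to 0.14 for Ebi3, -0.22 to 0.042 for Mpnd, -0.029 to 0.099 for Sh3gl1, -0.33 to 0.46 for Chaf1a, -0.056 to 0.12 for Hdgfl2 and -0.96 to 0.32 for Plin4. They ranged from -0.089 to 0.38 for Tnfaip8l1, -0.30 to 0.0018 for Mydgf, -0.28 to 0.16 for Dpp9, -0.088 to 0.18 for Fem1a, and -0.033 to 0.36 for Ticam1. For Uhrf1 the range was -0.46 to 0.49, for Safb2 -0.061 to 0.32, for Ranbp3 -0.084 to 0.050, for Rfx2 -0.59 to 0.74 and for Mllt1 -0.024 to 0.071.

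The labels share numbers between genotypes but do not say that a number pairs samples. Deviations of equally numbered arrays correlated at 0.596. With the replicate block limma made 0 calls over all genes and 0 among the members. The 8 members without overlap are the same by construction, as the block leaves the array values unchanged. Of the 15561 genes tested, 1040 had an unadjusted limma p under 0.05 with the block and 325 without it. Of the 29 members tested, 3 did with the block (Shd, Plin5 and Lrg1) and 2 without it. The lowest adjusted p of a member in limma with the block was 0.700. Signal over background limits Fsd1, Arrdc5 and Acsbg2.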

Other observations

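T cell markers had a higher mean in STAP-2-/- colons for all 7 tested, 4 without overlap (11.5% of all genes tested were higher without overlap). Their median log2 level was -2.99 and -2.38 in WT and -2.30 and -1.09 in STAP-2-/- colons. Cd6, a receptor on T cells, differed by 1.37 and Cd3e, a chain of the T cell receptor complex, by 0.42. Neither passed the adjusted p in limma. Smooth muscle markers had a lower mean in all 6, 2 without overlap (13.4% of all genes), with a median difference of -0.15. Myeloid and dendritic markers were split, 4 higher and 3 lower, with a median of 0.02.

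Markers of organs outside the colon were also read. Liver markers had a higher mean in 2 and a lower mean in 2 of the 4 tested, with a median difference of -0.01. Of 5 testis markers, Ddx4 and Odf1 were not well above background on any array, and the 3 tested had a median difference of 0.19. Colon epithelial markers, 9 tested, all overlapped between the genotypes, with a median difference of 0.03.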
